A study of Mus musculus with 2 samples.

Results

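A group of hippocampal excitatory neurons defined by the genes Pde11a, Dcn, Rspo2 and Vegfd was examined in single-nucleus RNA data from 2 libraries of mouse hippocampus. Nuclei were chosen by their own counts of UMIs, the unique molecular identifiers that stand for single captured RNA molecules. At least 500 detected genes were asked of a nucleus, and less than 5% of its UMIs could be mitochondrial. It had at least 4 UMIs of the 4 marker genes together, with at least 2 of these genes detected, and at least 3 UMIs of Gm2115, Hs6st3 and Man1a together. At most 1 UMI of Gad1 and Gad2, the enzymes of GABA synthesis, and at most 1 UMI of the fibroblast genes Slc6a13, Col1a2 and Ranbp3l were allowed. The rule kept 1384 of the 37671 nuclei that passed the limits on genes and mitochondrial UMIs. These were 623 of 22263 nuclei in the library labelled MR1 knockout and 761 of 15408 in the 5XFAD library.

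Pyramidal neurons are the excitatory projection cells of the hippocampus, and those of field CA1 and the subiculum carry its output. Gene expression along this layer is graded from the dorsal to the ventral pole of the hippocampus, and the ventral pole is known for its links to amygdala, hypothalamus and prefrontal cortex. Pde11a encodes a phosphodiesterase that breaks down both cAMP and cGMP and is known in mouse brain for its expression in the ventral hippocampus. Dcn encodes decorin, a small secreted proteoglycan that binds collagen and transforming growth factor beta. Rspo2 encodes an R-spondin, a secreted protein that strengthens Wnt signalling by sparing Frizzled receptors from degradation. Vegfd encodes a secreted ligand of vascular endothelial growth factor receptors. In GRCm38, the build called mm10, Pde11a lies on the minus strand of chromosome 2 at chr2:75989141-76338774 and Dcn on the plus strand of chromosome 10 at chr10:97479609-97518143. Rspo2 lies on the minus strand at chr15:43020794-43170826 and Vegfd on the plus strand at chrX:164373378-164402650.

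The groups were 5XFAD x MR1 KO mice and 5XFAD mice, all 8 months old, with 1 library in each group. Both groups carried the 5XFAD transgenes, which include mutant human APP, driven by sequences of the neuronal gene Thy1, so a group without them was not part of the comparison. MR1 presents small microbial metabolites to a class of innate-like T cells called MAIT cells, and the comparison asks how the brain differs when this axis is missing. The hippocampi of a male and a female mouse were pooled before capture, so mice of a library shared its capture and are not independent replicates. Mr1 (chr1:155127277-155146814, minus strand) had 0 UMIs in the rule-selected nuclei of the library labelled MR1 knockout, which allows up to 0.832 CPM (counts per 1000000 UMIs of the set), and 8 UMIs (1.11 CPM) in those of the 5XFAD library. Over all nuclei passing the limits it had 93 UMIs (1.16 CPM) in the library labelled MR1 knockout and 61 UMIs (0.749 CPM) in the 5XFAD library. RNA therefore did not set the labels apart, and because tags from the 3' end of a transcript can lie outside a deleted part, this count checks nothing about the knockout.

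There were 26212 barcodes and 85678909 UMIs in the library labelled MR1 knockout and 25238 barcodes and 106861726 UMIs in the 5XFAD library. Nuclei passing the limits had a median of 2767 UMIs in the library labelled MR1 knockout and 4066 in the 5XFAD library. The rule favours deep nuclei, and the rule-selected nuclei had medians of 6074 UMIs and 2772 genes in the library labelled MR1 knockout and 8079 UMIs and 3208 genes in the 5XFAD library. Of these nuclei 325 came from the female and 153 from the male mouse in the library labelled MR1 knockout, and 493 and 118 in the 5XFAD library, by Xist and Y-linked UMIs. The libraries shared 182 barcodes, 2 of them barcodes of rule-selected nuclei in both. With 1 library per group no difference between the groups has a replicate check, so no p-value is given. All intervals are 95% intervals for counting error alone, and ratios between groups have the library labelled MR1 knockout on top.

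Slc17a7 and Camk2a were detected in most nuclei chosen by the rule, but these nuclei were not of 1 kind. Slc17a7, the vesicular glutamate transporter of hippocampal and cortical excitatory neurons, was detected in 78.2% of them in the library labelled MR1 knockout and 78.8% in the 5XFAD library. Camk2a, the kinase of excitatory synapses, was detected in 89.7% and 93.8%. These shares stand above those in oligodendrocyte-type nuclei (25.2% and 25.3% for Slc17a7, 38.8% and 42.5% for Camk2a), where free RNA is the background, although those nuclei were shallower, with medians of 1406 and 1948 UMIs. At most 1 UMI of Slc17a7, Gad1 and Gad2 together was allowed in the oligodendrocyte-type nuclei, which caps their share for Slc17a7. All 5 excitatory markers were lower in both libraries than in the CA1-type nuclei described below, 1 of them past 1.5-fold.

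When all nuclei were clustered, 45.7% of the rule-selected nuclei of the library labelled MR1 knockout (285) and 44.7% of those of the 5XFAD library (340) fell into 1 of 40 clusters. Its leading genes were Gm42705, Gm42707, C1qtnf7, Gm6260, Gm30275, Dcn, Gm34045, Shoc1, Pde11a and Fras1, and it is called the Dcn and Pde11a cluster here. None of the marker sets of other hippocampal, cortical or glial classes stood among its top 50 genes, including the CA1 set, so it takes no further name. The other rule-selected nuclei, 338 in the library labelled MR1 knockout and 421 in the 5XFAD library, were spread over further clusters. Counting the Dcn and Pde11a cluster, 34 clusters held any rule-selected nucleus and 17 held at least 10. A CA1-like cluster led by Fibcd1, Gm2115 and Htr5b took 102 of them in the library labelled MR1 knockout and 105 in the 5XFAD library. A cluster led by Fn1, Tshz2 and Rxfp1, which shares Gm42705, Gm42707 and Gm6260 with the Dcn and Pde11a cluster, took 31 and 49. Glial clusters held some as well. A cluster with 3 oligodendrocyte markers among its top 50 genes held 17 and 32. Clusters with 3 astrocyte and 3 oligodendrocyte precursor markers there held 8 and 10, and 6 and 9. A cluster with Ikzf1 and Inpp5d among its leading genes held 38 and 27, and a cluster with Cd84 and Naip2 held 24 and 37. In some clusters nearly all rule-selected nuclei came from 1 library: a cluster led by Tshz2, Cux2 and Rxfp1 held 0 and 32 rule-selected nuclei, a cluster with Rorb and Fhod3 held 2 and 25, and a cluster with Otof and Smoc1 held 36 and 1. The label of pyramidal neurons with Pde11a and Dcn therefore describes only the minority of the chosen nuclei in that cluster, and results are given for all of them and for the Dcn and Pde11a cluster, a restriction made after the data were seen.

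Barcodes with RNA of both mice were more frequent among the rule-selected nuclei than among all nuclei. Those with both Xist and Y-linked UMIs made up 16.1% of the rule-selected nuclei in the library labelled MR1 knockout and 16.3% in the 5XFAD library, against 7.14% and 9.88% of all nuclei. Doublet calls covered 23.8% and 17.0% of the rule-selected nuclei, against 18.3% and 12.8% of all nuclei. CA3-type nuclei, chosen by Nectin3 and Grik4, were of like depth, with medians of 6051 and 8407 UMIs. Of these, 15.8% and 13.3% had both signals, and doublet calls covered 23.8% and 15.4%. The higher shares were thus not particular to the rule-selected nuclei. Within the Dcn and Pde11a cluster, nuclei with both signals made up 6.67% and 5.29% of the rule-selected nuclei, and doublet calls 11.9% and 1.76%. The 4 clusters with over 20% of nuclei with both signals held 91 rule-selected nuclei in the library labelled MR1 knockout and 102 in the 5XFAD library.

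The marker genes chose the nuclei, so their levels are a description. Pde11a had 1872 UMIs in the rule-selected nuclei of the library labelled MR1 knockout (422 CPM, in 89.1% of the nuclei) and 2510 UMIs in those of the 5XFAD library (349 CPM, 86.3%). Dcn had 1184 UMIs (267 CPM, 74.8%) and 1408 UMIs (196 CPM, 69.5%). The ratios were 1.21 (1.14 to 1.29) for Pde11a and 1.37 (1.26 to 1.48) for Dcn. The rule asks for the same 4 marker UMIs at any depth, which is a higher CPM in a shallower nucleus. Rule-selected nuclei had medians of 6074 UMIs in the library labelled MR1 knockout and 8079 in the 5XFAD library. The ratios of the marker genes therefore give no direction between the groups, and the part of depth in them was not tested. Rspo2 had 1193 UMIs (269 CPM, 76.7%) in the library labelled MR1 knockout and 2191 UMIs (304 CPM, 85.9%) in the 5XFAD library, a ratio of 0.884 (0.823 to 0.949). Vegfd was sparse, with 167 UMIs (37.7 CPM, 22.8%) and 239 UMIs (33.2 CPM, 24.97%), and its interval of 0.925 to 1.39 spanned 1. In females and males the ratios were 1.44 and 1.01 for Dcn, 0.793 and 1.00 for Rspo2, and 1.20 and 1.26 for Pde11a. In oligodendrocyte-type nuclei Pde11a was detected in 4.79% and 5.83%, Dcn in 9.5% and 10.3%, Rspo2 in 4.18% and 7.01% and Vegfd in 1.37% and 1.61%.

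In the Dcn and Pde11a cluster most rule-selected nuclei held both genes that name it. There Dcn was detected in 92.6% of rule-selected nuclei in the library labelled MR1 knockout and 87.6% in the 5XFAD library, at 426 and 316 CPM. Pde11a was detected in 92.3% and 88.2%, at 520.3 and 441 CPM. Rspo2 was less even, in 73.3% and 82.1%, and Vegfd was found in 21.1% and 28.5%. Nuclei with Pde11a, Dcn and Rspo2 but no Vegfd were the most frequent combination, 46.3% of the cluster's rule-selected nuclei in the library labelled MR1 knockout and 41.2% in the 5XFAD library. Among all rule-selected nuclei the same combination made up 34.5% and 31.5%, and all 4 genes were found together in 9.79% and 13.3%.

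**Figure D1:**
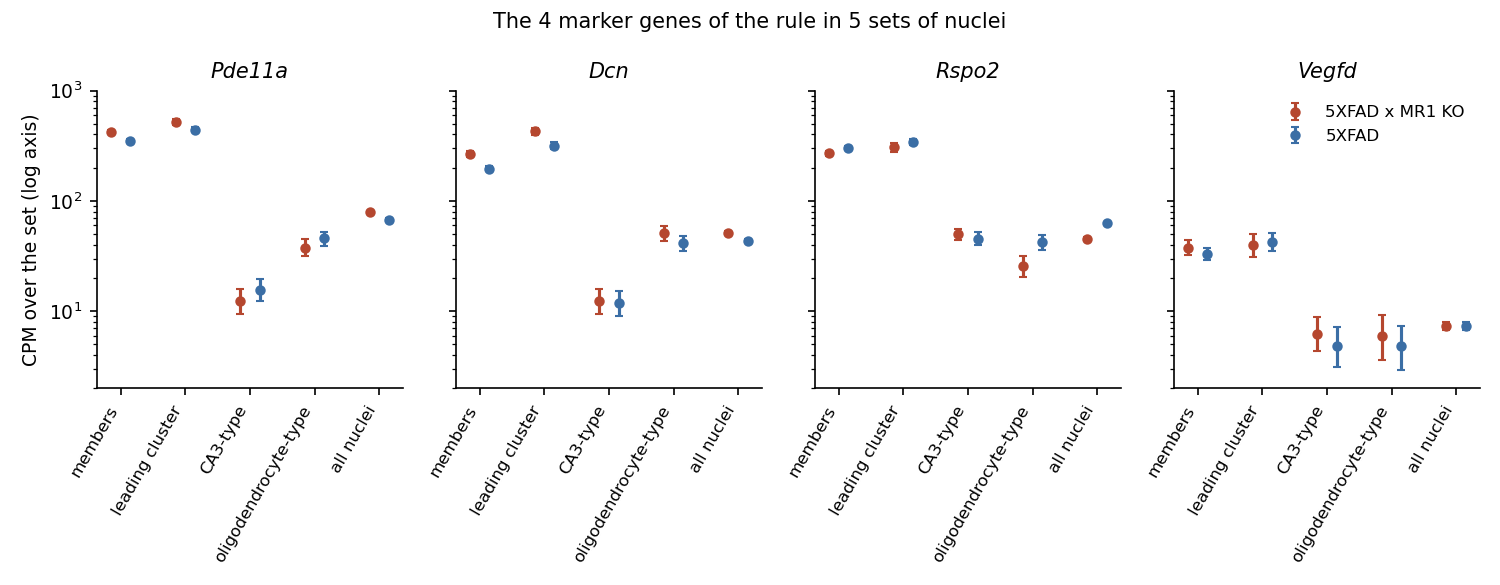
CPM of the marker genes Pde11a, Dcn, Rspo2 and Vegfd (log axis) in all rule-selected nuclei (members), those of the Dcn and Pde11a cluster (leading cluster), CA3-type nuclei of their main cluster, oligodendrocyte-type nuclei and all nuclei passing the limits. Points are single libraries with exact Poisson 95% intervals. Pde11a stands at 520.3 and 441 CPM in the leading cluster, and at 12.4 and 15.7 CPM in CA3-type nuclei.

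Rule-selected nuclei held a median of 6 marker UMIs in the library labelled MR1 knockout (4 to 25) and 7 in the 5XFAD library (4 to 44). Just inside the threshold, at 4 UMIs, stood 152 nuclei in the library labelled MR1 knockout, of which 32.2% were in the Dcn and Pde11a cluster, and 150 in the 5XFAD library, of which 30% were. Just outside, at 3 UMIs with the other terms met, stood 170 nuclei (21.8% in that cluster) and 168 nuclei (29.8%). At 8 or more UMIs the cluster's share was 58.8% of 204 nuclei and 52.0% of 331. The cluster also held nuclei that missed the rule, 445 in the library labelled MR1 knockout and 446 in the 5XFAD library, with lower medians of 3600 and 4629.5 UMIs. Too few marker UMIs put out 380 and 367 of these, and too few UMIs of Gm2115, Hs6st3 and Man1a put out 165 and 91, with some counted under both.

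The rule-selected nuclei made up a smaller share of the library labelled MR1 knockout, but the direction was the opposite in the male mice. Their share was 2.80% (2.59 to 3.02) in the library labelled MR1 knockout and 4.94% (4.6 to 5.29) in the 5XFAD library, a ratio of 0.567 (0.509 to 0.631). Among nuclei of females the share was 2.77% (2.48 to 3.08) and 7.51% (6.89 to 8.18), a ratio of 0.369 (0.320 to 0.425). Among nuclei of males it was 4.17% (3.55 to 4.87) and 2.86% (2.38 to 3.42), a ratio of 1.46 (1.14 to 1.87). All nuclei of the Dcn and Pde11a cluster, whether or not they met the rule, gave 3.28% and 5.10%, a ratio of 0.643 (0.580 to 0.712). Their ratio was 0.410 (0.359 to 0.468) in females and 1.40 (1.12 to 1.74) in males.

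The rule counts UMIs, and the 5XFAD library was deeper. When every nucleus was thinned to 2000 UMIs, 124 nuclei met the rule in the library labelled MR1 knockout (0.835%) and 118 in the 5XFAD library (0.966%), a ratio of 0.864 whose interval of 0.666 to 1.12 spanned 1. The mitochondrial limit also moved the share, to a ratio of 0.426 with a limit of 1% and 0.724 with none. Other pyramidal clusters showed the same opposite directions in the mice. CA1-type nuclei without marker UMIs, in the CA1-like cluster, had a ratio of 0.747 (0.678 to 0.824), of 0.244 in females and 1.74 in males. CA3-type nuclei in their main cluster had a ratio of 1.05 (0.941 to 1.17), of 0.541 in females and 2.93 in males. With 1 mouse of each sex in each group, differences between single mice and between the groups cannot be told apart. A share also moves with the number of other nuclei captured, and these cannot be told apart.

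**Figure D2:**
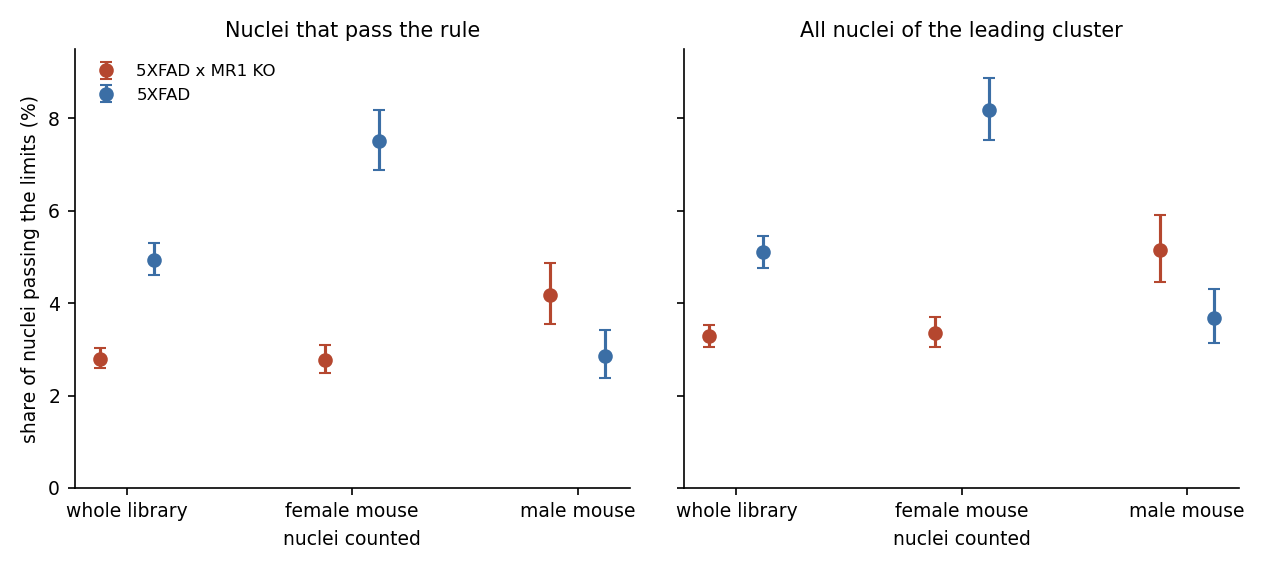
Share of nuclei (%) that met the rule (left) and that fell into the Dcn and Pde11a cluster (right), for the whole library and for its female and male mouse. Points are 1 library or 1 mouse, with Clopper-Pearson 95% intervals for counting error; females stand at 2.77% and 7.51% in the left panel, and males at 4.17% and 2.86%.

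To describe what else these nuclei expressed, they were set beside CA1-type nuclei, which met the terms on Gm2115, Hs6st3 and Man1a, on GABA and on fibroblast genes but had no UMI of the 4 markers (3432 nuclei in the library labelled MR1 knockout and 3014 in the 5XFAD library). Of 12115 genes with at least 100 UMIs in each library, 258 (2.13%) were at least 1.5-fold higher in the rule-selected nuclei in both libraries and 373 (3.08%) at least 1.5-fold lower. Fn1, which encodes fibronectin, led the higher genes with 27.1 against 2.81 CPM in the library labelled MR1 knockout and 26.9 against 2.63 CPM in the 5XFAD library. Adra1a, an alpha adrenergic receptor, was 4.77-fold and 3.99-fold higher, Ndrg1 3.98-fold and 3.64-fold, and the transcriptional cofactor gene Ldb2 3.06-fold and 3.39-fold. The comparison nuclei were themselves mixed, with 2577 and 2222 of them outside the CA1-like cluster. The collagen chain gene Col11a1 was 0.236 and 0.231 times as high, and the interneuron gene Adarb2 0.287 and 0.310 times.

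Restricting both sides to their main cluster left more genes past the fold, with 285 and 340 nuclei of the Dcn and Pde11a cluster against 855 and 792 CA1-type nuclei. Of 6603 genes, 479 (7.25%) were at least 1.5-fold higher in both libraries and 352 (5.33%) lower, and 54 (0.818%) and 11 (0.167%) were past 5-fold. Clustering used the same counts, so these differences describe the clusters and are not tests. The CA1-type nuclei were shallower, with medians of 2765 UMIs in the library labelled MR1 knockout and 4140.5 in the 5XFAD library, against 5248 and 7177.5.

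The 12 highest genes included members of the ephrin, netrin receptor, cadherin and protocadherin families. Efna5 encodes ephrin-A5, a membrane-bound guidance ligand. It stood at 208 CPM in the cluster against 1.41 CPM in CA1-type nuclei in the library labelled MR1 knockout (ratio 147, 57.1 to 544, from 4 UMIs in CA1-type nuclei) and at 247 against 5.24 CPM in the 5XFAD library (ratio 47.1, 30.3 to 77.6). In the opposite direction Epha7, a receptor of this ligand class, stood at 103 against 581 CPM (0.178, 0.151 to 0.208) and 104 against 635 CPM (0.164, 0.145 to 0.186). The pair was thus inverted between the clusters in both libraries. Unc5d, of the netrin receptor family, stood at 488 against 26.4 CPM and 579 against 14.7 CPM, ratios of 18.5 and 39.5. The cadherin genes Cdh20 (146 against 6.34 CPM and 178 against 7.07 CPM) and Cdh13 (348 against 18.3 and 432 against 19.9 CPM) were 23.1-fold and 25.2-fold and 19.0-fold and 21.7-fold higher. Pcdh15, a protocadherin known from the hair cells of the inner ear, was 19.8-fold and 32.4-fold higher.

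Subunits and organisers of channels and synapses followed. Dpp10, an auxiliary subunit of A-type potassium channels, stood at 2911 against 86.6 CPM in the library labelled MR1 knockout (33.6, 29.6 to 38.4) and 3149 against 62.9 CPM in the 5XFAD library (50.1, 44.0 to 57.2). Kctd8, an auxiliary subunit of GABA-B receptors, was 35.5-fold and 23.4-fold higher, and Lrrtm3, a synaptic organiser, 22.6-fold and 27.3-fold. Ctnna3, a catenin, was 17.4-fold and 36.3-fold higher, and Arhgap6, which encodes a GTPase-activating protein, 28.0-fold and 23.6-fold. Lrrtm3 lies within Ctnna3 on the opposite strand, Gm15261 within Arhgap6 and Gm15398 within Pcdh15. The strand setting of the count is not given in the sources used here, so reads of these pairs cannot be told apart.

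The 12 lowest genes included Zbtb20, Chrm3, Htr2a and Col11a1. Zbtb20, a transcription factor needed for CA1 identity in mice, stood at 476 against 2005 CPM in the library labelled MR1 knockout (0.237, 0.22 to 0.256) and 305 against 1859 CPM in the 5XFAD library (0.164, 0.152 to 0.176). Col11a1 had 5 and 3 UMIs in the cluster, at 2.92 against 86.3 CPM and 1.11 against 66.8 CPM. Chrm3, a muscarinic acetylcholine receptor, was 0.173 and 0.179 times as high, and Htr2a, a serotonin receptor, 0.122 and 0.113 times. Tafa1, which encodes a secreted protein, stood at 632 against 2506 CPM and 537 against 2451 CPM. Luzp2, Zfhx4, Hunk and the noncoding genes 4921539H07Rik, 1700007F19Rik and A330015K06Rik completed the lower 12, with ratios between 0.0223 for 1700007F19Rik and 0.232 for A330015K06Rik. The first pair of these noncoding genes overlap each other on opposite strands, as do A330015K06Rik and Kcnab1, and Chrm3 and Gm26861.

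**Figure D3:**
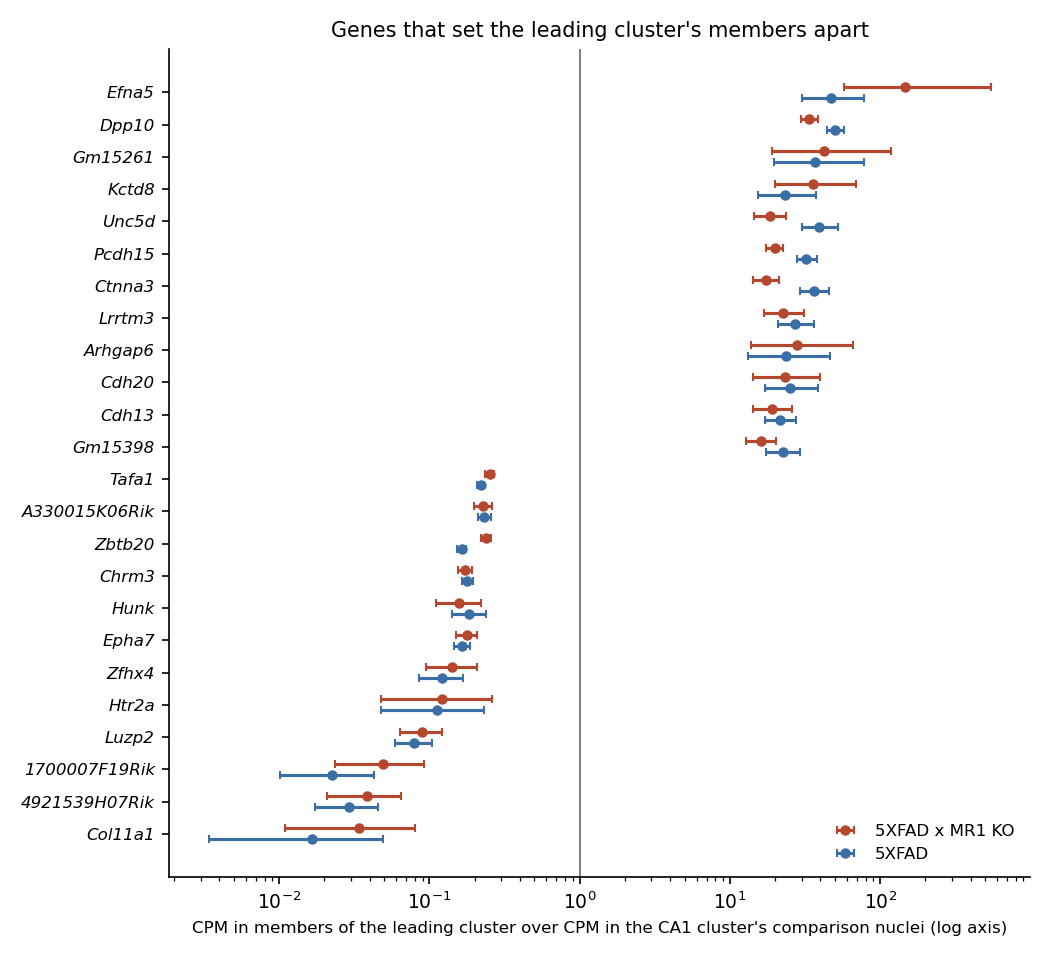
Ratio of CPM in rule-selected nuclei of the Dcn and Pde11a cluster over CA1-type nuclei of the CA1-like cluster (log axis) for the 12 highest and 12 lowest genes. Points are single libraries with exact conditional binomial 95% intervals. Efna5 stands at 147 and 47.1, and Col11a1 at 0.0338 and 0.0165.

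Of the 7 CA1 markers, 6 were past 1.5-fold lower in the cluster in both libraries, Mpped1 being the exception. Fibcd1 stood at 21.6 against 73.6 CPM in the library labelled MR1 knockout and 23.2 against 52.9 CPM in the 5XFAD library. Neurod6, a transcription factor of forebrain pyramidal neurons, was 0.283 and 0.269 times as high, and Camk2a 0.501 and 0.573 times. Of the 5 excitatory markers 0 were higher and 5 lower in both libraries, 3 of them past the fold. Tshz2, known from the subiculum and retrosplenial cortex, was 7.60-fold and 13.5-fold higher, and Cpne4, known from CA3, 5.43-fold and 6.68-fold. Their lists as a whole did not follow. Of 5 measured subiculum and cortex markers 1 was past the fold higher and 0 lower (median log2 ratios of 0.08 and 0.10). Of 5 measured CA3 and CA2 markers 2 were higher and 1 lower (-0.08 and -0.03). Over all genes 8.56% were past the fold higher and 6.01% lower. Against CA3-type nuclei of their main cluster, 5 of 8 CA3 and CA2 markers were past the fold lower (median log2 ratios of -1.88 and -2.36) and 5 of 7 CA1 markers higher, against medians of 0.15 and 0.15 over 12774 genes, of which 11.1% were past the fold higher and 6.25% lower. Of the 5 excitatory markers 0 were higher there and 4 lower in both libraries, 1 of them past the fold.

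Genes known from the ventral pole of the hippocampus were mostly higher in the cluster than in CA1-type nuclei. Of 8 measured genes of that list, 6 were past 1.5-fold higher in both libraries and 1 lower, with median log2 ratios of 1.35 in the library labelled MR1 knockout and 1.82 in the 5XFAD library. Over all 12013 genes with at least 20 UMIs, 8.56% were past the fold higher and 6.01% lower, with medians of 0.04 and 0.03. Nnat, a small proteolipid of the endoplasmic reticulum, stood at 834 against 171 CPM (4.88, 4.40 to 5.41) and 658 against 132 CPM (4.99, 4.52 to 5.52). Htr2c, a serotonin receptor, was 3.74-fold and 3.72-fold higher, Nr2f2, a nuclear receptor, 3.10-fold and 4.30-fold, Etv1, an ETS transcription factor, 2.12-fold and 3.35-fold, and Grp, the precursor of gastrin-releasing peptide, 1.68-fold and 2.06-fold. Gpc3, a glypican, stood at 19.8 against 2.46 CPM and 19.2 against 1.31 CPM. Cck, a neuropeptide precursor, was the lower member, at 276 against 497 CPM and 236 against 403 CPM.

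In the dorsal pole list 4 of 8 genes were past the fold lower in the cluster than in CA1-type nuclei and 1 higher, with median log2 ratios of -0.45 and -0.46. Fibcd1, Pou3f1 (0.511 and 0.402), Wfs1 (0.598 and 0.301) and Spink8 (0.422 and 0.592) were past the fold lower. Ccn3, a matricellular protein gene placed in the dorsal list, was 2.65-fold and 2.66-fold higher, at 152 against 57.4 CPM and 110.2 against 41.4 CPM. Fibcd1, Pou3f1, Wfs1, Spink8 and Mpped1 are also in the CA1 marker list, so the lists are not separate evidence. This pattern was not found over all rule-selected nuclei, where 3 of 8 dorsal genes were past the fold higher and 0 lower (medians of 0.42 and 0.36) and 2 of 10 ventral genes higher and 0 lower (0.44 and 0.21). Over all 16154 genes with at least 20 UMIs in that comparison, 2.77% were past the fold higher and 4.46% lower. Against the CA3 cluster 6 of 8 dorsal and 6 of 9 ventral genes were past the fold higher, beside 11.1% of all genes.

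The rule's own genes belong to cyclic nucleotide, Wnt, matrix and growth factor pathways, whose other genes were examined. In the cluster, counts of genes past the fold stand beside 8.56% higher and 6.01% lower over all genes. Counts over all rule-selected nuclei stand beside 2.77% and 4.46%. Of 13 further phosphodiesterase genes measured, 3 were past the fold higher in the cluster than in CA1-type nuclei and 0 lower, while over all rule-selected nuclei 2 of 16 were higher and 4 lower, among them Pde3a (0.357 and 0.417 times as high). Pde1a, a calcium-activated enzyme, stood at 1686 against 785 CPM in the library labelled MR1 knockout (2.15, 2.03 to 2.27) and 1556 against 741 CPM in the 5XFAD library (2.10, 2.0 to 2.20). Pde4b, specific for cAMP, was 2.03-fold and 2.79-fold higher, and Pde9a, specific for cGMP, 3.21-fold and 4.35-fold. Of 11 cyclase genes 3 were higher (Adcy5 1.84-fold and 1.98-fold, Adcy6 and Gucy1a1) and 0 lower. Of 16 effectors 4 were higher and 0 lower. Among these were the protein kinase A genes Prkacb and Prkar2b and Prkg2, a cGMP-dependent kinase. In the library labelled MR1 knockout the intervals of Adcy6, Gucy1a1 and Prkg2 spanned 1. Over all rule-selected nuclei 0 of 12 cyclase genes were past the fold, and 1 of 17 effectors was higher and 0 lower. In the cluster the medians of the 3 lists lay between -0.09 and 0.11 on the log2 scale, near those over all genes.

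In the Wnt list 4 of 17 measured genes were past the fold higher in the cluster and 3 lower, beside 8.56% and 6.01% of all genes. Over all rule-selected nuclei 3 of 31 were higher and 5 lower, beside 2.77% and 4.46%. Rspo3, another R-spondin, stood at 159 against 61.6 CPM (2.58, 2.13 to 3.14) and 168 against 58.9 CPM (2.84, 2.42 to 3.35), and the ligand genes Wnt4 (1.89 and 1.83), Wnt7b (3.16 and 1.99) and Wnt5a (1.51 and 3.13) were higher on 10 to 43 UMIs each in the cluster, so that some of their intervals spanned 1. Dkk3, of the Dickkopf family, was 0.388 and 0.364 times as high, Tcf4, a basic helix-loop-helix factor despite its name, 0.501 and 0.511 times, and Wnt2 0.345 and 0.541 times. Of 5 measured genes of the VEGF pathway 0 were past the fold. In the proteoglycan and matrix list 6 of 15 genes were higher and 3 lower, with median log2 ratios of 0.49 and 0.52. Over all rule-selected nuclei 1 of 23 was higher and 1 lower. The shares over all genes given for the Wnt list apply here too. Gpc6 stood at 427 against 43.0 CPM (9.94, 8.20 to 12.1) and 347 against 39.0 CPM (8.88, 7.46 to 10.6), while the related glypican Gpc5 was lower at 367 against 1068 CPM and 277 against 582 CPM. Tgfb2, a ligand of the family that decorin binds, was 3.21-fold and 2.44-fold higher, and Bcan, the perineuronal proteoglycan brevican, 0.126 and 0.174 times as high.

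Several receptor genes stood far apart between the clusters, in both directions. Of 28 genes for glutamate receptors and scaffolds, 10 were past the fold higher in the Dcn and Pde11a cluster and 2 lower, beside 8.56% and 6.01% of all genes, with median log2 ratios of 0.15 and 0.30. Over all rule-selected nuclei 2 of 31 were higher and 3 lower, beside 2.77% and 4.46%. Grm8, a presynaptic metabotropic receptor, stood at 390.2 against 28.9 CPM (13.5, 10.7 to 17.2) and 466 against 17.8 CPM (26.2, 20.5 to 33.9). Grik3, a kainate receptor subunit, was 14.2-fold and 19.1-fold higher, the AMPA receptor subunit gene Gria4 5.10-fold and 6.53-fold, and the NMDA receptor subunit gene Grin3a 2.75-fold and 3.0-fold. Grin2a was lower, at 1859 against 3079 CPM and 1868 against 3251 CPM, as was the scaffold gene Homer1 (0.444 and 0.612).

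Of 24 neuromodulator receptor genes 5 were higher and 7 lower in the cluster, against 1 and 4 of 38 over all rule-selected nuclei. All counts in this paragraph stand beside 8.56% of all genes past the fold higher and 6.01% lower in the cluster. Over all rule-selected nuclei these shares were 2.77% and 4.46%. Adra1a stood at 108 against 11.97 CPM (9.02, 6.23 to 13.4) and 101 against 5.50 CPM (18.3, 11.8 to 30.1), and Oprm1, the mu opioid receptor, at 49.6 against 10.2 CPM and 67.4 against 9.43 CPM. Among serotonin receptors Htr2c and Htr7 were higher, and Htr2a, Htr1f (0.310 and 0.194) and Htr1b lower. In the library labelled MR1 knockout the intervals of Htr7 (0.934 to 7.01) and Htr1b (0.255 to 1.05) spanned 1. Esr1, the estrogen receptor alpha gene, was the 1 gene of 9 in the steroid receptor list past the fold, at 22.7 against 8.80 CPM and 12.2 against 4.19 CPM. Of 37 voltage-gated channel genes 5 were higher and 7 lower in the cluster, against 3 and 4 of 38 over all rule-selected nuclei. Kcnd3, which encodes an A-type potassium channel, was higher (275 against 77.1 CPM and 250.2 against 68.6 CPM) and Kcnd2, of the same family, lower (1714 against 3994 CPM and 1871 against 4253 CPM). Cacna1c, an L-type calcium channel, was 2.04-fold and 2.26-fold higher, and Scn3b, a sodium channel beta subunit, 0.301 and 0.300 times as high.

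Immediate early genes, which neurons switch on after activity, were lower for 8 of 16 measured members and higher for 2, with median log2 ratios of -1.13 and -0.63. Over all genes 6.01% were past the fold lower in the cluster and 8.56% higher. Over all rule-selected nuclei 5 of 21 immediate early genes were lower and 1 higher, beside 4.46% and 2.77% of all genes. Npas4 had 2 UMIs against 23 in CA1-type nuclei in the library labelled MR1 knockout and 8 against 37 in the 5XFAD library, ratios of 0.144 and 0.304. Bdnf, the neurotrophin gene, stood at 24.5 against 49.6 CPM and 23.9 against 42.2 CPM, while Jun was 2.28-fold and 2.74-fold higher. All 80 measured ribosomal protein genes were lower in both libraries, beside 4004 of 12013 genes in all, with 1 past the fold and medians of -0.56 and -0.45. Of 88 nuclear genes of oxidative phosphorylation 9 (10.2%) were past the fold lower, beside 6.01% of all genes, and 0 higher, with medians of -0.47 and -0.46. Over all rule-selected nuclei the 80 ribosomal genes were again lower in both libraries, beside 6115 of 16154 genes in all, with 0 past the fold. Of 90 oxidative phosphorylation genes 0 were past it. The median mitochondrial share was 0.968% and 1.09% in the cluster's rule-selected nuclei and 0.856% and 1.44% in the CA1-type nuclei. These low values were not found against CA3-type nuclei of their main cluster. There 41 of 80 ribosomal genes were higher in both libraries and 9 lower (medians of 0.03 and 0.07). Of 89 oxidative phosphorylation genes 55 were higher and 7 lower (0.12 and 0.14), beside medians of 0.15 and 0.15 over all genes. Of 15 immediate early genes 4 were past the fold higher and 2 lower, beside 11.1% and 6.25% of all genes. The part of depth and of cytoplasmic RNA in these lists was not tested.

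**Figure D4:**
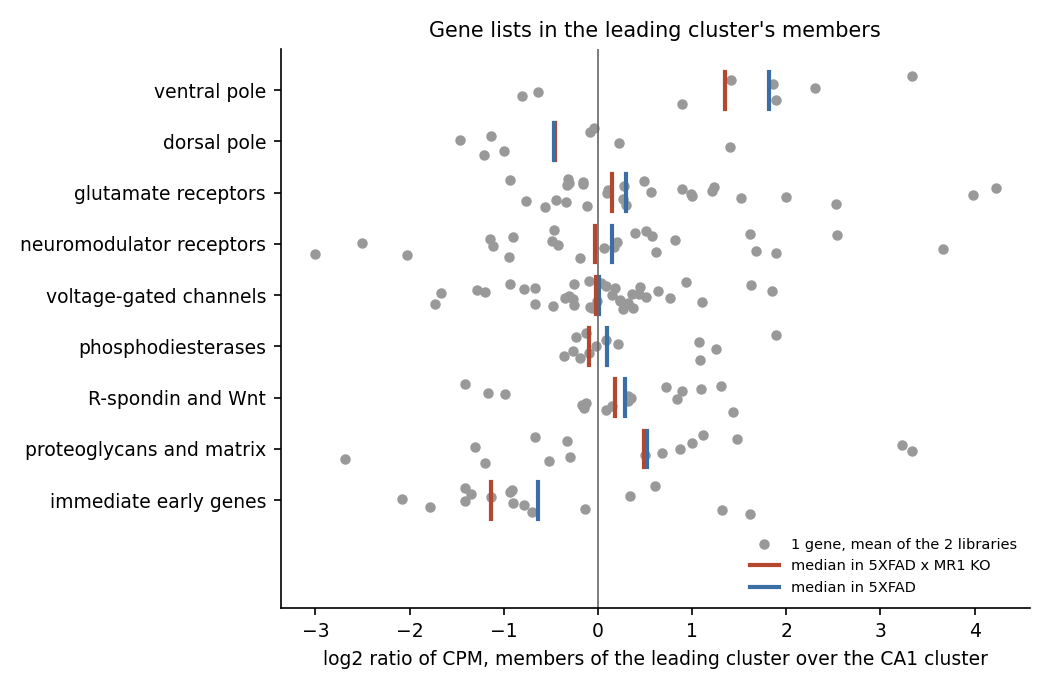
Log2 ratio of CPM in the Dcn and Pde11a cluster over CA1-type nuclei for 9 gene lists. Grey points are genes with at least 20 UMIs (mean of the 2 libraries), and coloured bars are the medians in each library; the ventral list has medians of 1.35 and 1.82, and immediate early genes -1.13 and -0.63.

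Between the groups, most genes differed little in the rule-selected nuclei. Of 10272 genes with at least 100 UMIs, 362 (3.52%) were at least 1.5-fold higher in the library labelled MR1 knockout and 129 (1.26%) at least 1.5-fold lower. This split depended on the scaling. TMM scaling, which shifted all log2 ratios by -0.10, gave 190 higher and 229 lower, and DESeq2's size factors, with a shift of -0.10, gave 184 and 240. Higher and lower below mean a ratio above or below 1, with no correction for this. Small differences are therefore to be read beside a median log2 ratio of 0.09 over all genes.

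Several of the genes with the largest ratios had similar ratios in other cells. Ttr, transthyretin of the choroid plexus, had 2306 UMIs (520 CPM) in the library labelled MR1 knockout and 971 UMIs (135 CPM) in the 5XFAD library, a ratio of 3.86 (3.58 to 4.16). Its ratio was 4.44 (4.17 to 4.74) in oligodendrocyte-type nuclei and 5.22 in the CA1-like cluster. Per nucleus of the Dcn and Pde11a cluster it had 3.24 and 0.826 UMIs, against 3.29 and 1.01 per oligodendrocyte-type nucleus. Tac1, the substance P precursor known from the striatum, had 24 and 265 UMIs (0.147, 0.0925 to 0.224), with a ratio of 0.142 in oligodendrocyte-type nuclei. Likewise Gm17167 (0.0394 and 0.0425), Sav1 (0.326 and 0.262), Cntnap3 (0.347 and 0.327), Oser1 (2.94 and 3.06), Prlr (2.41 and 2.39) and the dentate gene C1ql2 (2.72 and 2.65) gave similar ratios in the rule-selected and oligodendrocyte-type nuclei. Summed choroid plexus markers (Ttr and Folr1) stood at 522 and 135 CPM in rule-selected nuclei, and summed striatal markers at 23.5 and 46.0 CPM. Their part in the ratios of other genes was not tested.

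Other large ratios stood beside single nuclei with many UMIs or an uneven mix of clusters. The haemoglobin genes Hbb-bs (319 and 26 UMIs) and Hba-a1 (92 and 8 UMIs) led the list, but 1 nucleus held 305 of the 319 and 85 of the 92 UMIs. Foxp2, a transcription factor of deep cortical layers and striatum, had 40 UMIs (9.02 CPM) and 240 UMIs (33.3 CPM), a ratio of 0.271 (0.189 to 0.379). Within the Dcn and Pde11a cluster Foxp2 had a ratio of 1.01 and Rarb, a retinoic acid receptor, 0.814, against 0.316 for Rarb in all rule-selected nuclei. In oligodendrocyte-type nuclei these genes had ratios of 0.267 for Foxp2 and 0.101 for Rarb. Zfp804b was 0.459 times as high in all rule-selected nuclei and 0.765 times in the cluster. Rorb (0.425) and Fhod3 (0.410) are leading genes of a cluster that gave 2 rule-selected nuclei in the library labelled MR1 knockout and 25 in the 5XFAD library. The Dcn and Pde11a cluster by itself gave Rorb a ratio of 0.447 (11 and 39 UMIs; 0.206 to 0.889) and Fhod3 a ratio of 0.644 (0.383 to 1.05), and in oligodendrocyte-type nuclei they had 0.471 and 0.636. Summed subiculum and cortex markers stood at 285 CPM in the library labelled MR1 knockout and 423 CPM in the 5XFAD library. The part of this mix in other results over all rule-selected nuclei was not tested.

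Within the Dcn and Pde11a cluster, 207 of 6379 genes (3.25%) were past 1.5-fold higher in the library labelled MR1 knockout and 89 (1.4%) lower. Of the 12 highest and 12 lowest genes there, 21 had the same direction in the remaining nuclei of the cluster, which did not meet the rule, and 11 were past the fold there in that direction. Both sets of nuclei come from the same 2 libraries, so this does not replace a replicate. The 12 highest and 12 lowest were taken only from genes with the same direction in female and male mice. That females and males agree in direction for these genes was therefore fixed by the choice. Markers of other cells also differed in the cluster, with summed dentate markers at 107 and 54.9 CPM, inhibitory neuron markers at 208 and 149 CPM with Lhx6 at 0 in both, and choroid markers at 541 and 104 CPM. Microglial markers stood at 184 and 179 CPM and oligodendrocyte markers at 197 and 224 CPM.

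Il1rapl2, a synaptic adhesion protein of the interleukin-1 receptor accessory family, led the lower genes in the cluster. It had 80 UMIs (46.7 CPM) in the library labelled MR1 knockout and 611 UMIs (225 CPM) in the 5XFAD library, a ratio of 0.207 (0.162 to 0.262). Females gave 0.173 and males 0.226, and the value was 0.339 (0.279 to 0.410) in the remaining nuclei of the cluster. In oligodendrocyte-type nuclei it was 1.02 (0.882 to 1.17) and in the CA1-like cluster 1.31. Il1rapl2 was found in 18 of 285 nuclei and 51 of 340, and a single nucleus held up to 22 and 95 of the UMIs, so few nuclei carry this value.

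Etl4, the mouse gene of the Skt protein, was higher in many nuclei. It had 2044 UMIs (1192 CPM) in the library labelled MR1 knockout and 1686 UMIs (621 CPM) in the 5XFAD library, a ratio of 1.92 (1.80 to 2.05). It was detected in 88.4% of the nuclei in the library labelled MR1 knockout and 77.6% in the 5XFAD library, and after thinning to 2000 UMIs in 77.2% and 57.1%. Etl4 had ratios of 2.17 in females and 1.53 in males, 1.76 (1.61 to 1.92) in the remaining nuclei of the cluster, 0.908 in the CA1-like cluster and 0.801 (0.742 to 0.865) in oligodendrocyte-type nuclei. Over all rule-selected nuclei the ratio of Etl4 was 1.46, with 1.93 in females and 0.868 in males. Gm17171, which overlaps Etl4 on the opposite strand, had a ratio of 2.17. Thsd7b, a protein with thrombospondin repeats, had 528 UMIs (308 CPM) and 369 UMIs (136 CPM), a ratio of 2.27 (1.98 to 2.59), with 2.23 in females and 2.27 in males. It was found in 54.7% and 39.4% of the nuclei, and its ratio was 1.41 (1.14 to 1.75) in the remaining nuclei, 1.27 in the CA1-like cluster and 1.14 in oligodendrocyte-type nuclei.

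The guidance gene Dcc and the matrix gene Fras1 were among the lower ones. Dcc, the netrin receptor, had 1285 UMIs (750 CPM) in the library labelled MR1 knockout and 3359 UMIs (1238 CPM) in the 5XFAD library, a ratio of 0.606 (0.567 to 0.646). It was 0.551 in females and 0.770 in males and 0.732 in the remaining nuclei, beside 0.743 in oligodendrocyte-type nuclei and 0.939 in the CA1-like cluster. Fras1, an extracellular matrix protein and 1 of the cluster's leading genes, stood at 306 and 448 CPM, a ratio of 0.682 (0.615 to 0.756). Its ratio was 0.812 in the remaining nuclei, 0.742 in oligodendrocyte-type nuclei and 1.19 in the CA1-like cluster. Dcx, a microtubule-associated protein of immature neurons, was 0.544 times as high and the noncoding gene 4930555F03Rik 0.60 times, with oligodendrocyte-type ratios of 1.04 and 1.05. Rps29 (0.540) and Rps21 (0.646) were lower here and in oligodendrocyte-type nuclei (0.710 and 0.772). Erbb4 (87 and 25 UMIs, ratio 5.51) and Grik1 (23 and 82 UMIs, 0.444) turned round in the remaining nuclei, to 0.665 and 1.59, and 1 nucleus held 33 of the 87 Erbb4 UMIs.

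**Figure D5:**
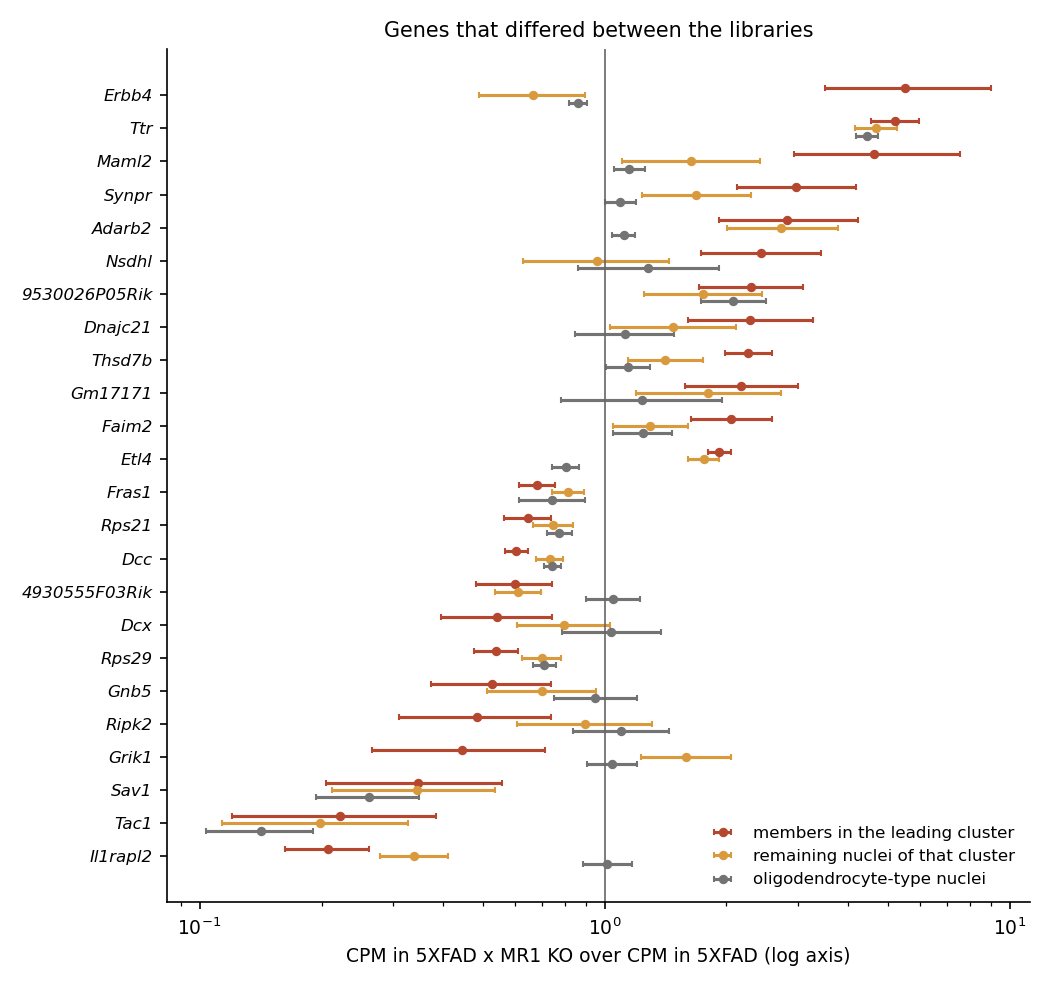
Ratio of CPM between the groups, with the library labelled MR1 knockout on top (log axis), for the 12 highest and 12 lowest genes between the groups in the Dcn and Pde11a cluster, in its rule-selected nuclei, in its remaining nuclei and in oligodendrocyte-type nuclei, with exact conditional binomial 95% intervals. Il1rapl2 stands at 0.207, 0.339 and 1.02, Etl4 at 1.92, 1.76 and 0.801, and Ttr at 5.21, 4.69 and 4.44.

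Gene lists for the pathways of the marker genes differed between the groups in both directions. Over all 14835 genes with at least 20 UMIs in the rule-selected nuclei, 62.4% had a ratio above 1, 8.24% were past the fold higher and 4.22% lower, and the counts of list members below are to be read against these shares. Of 16 further phosphodiesterase genes 0 were past the fold higher and 2 lower, and the median log2 ratio was -0.23, of 0.05 in females and -0.24 in males. Pde1c, a calcium-activated enzyme, had 42 and 185 UMIs (0.369, 0.257 to 0.518), with 0.703 in oligodendrocyte-type nuclei. Pde4b (0.826), Pde4d (0.843) and Pde10a (0.765) were within the fold. Of 25 Wnt genes 0 were past the fold higher and 5 lower (median 0.09), but within the Dcn and Pde11a cluster 3 of 18 were higher and 0 lower. In the proteoglycan and matrix list 5 of 23 genes were past the fold higher and 2 lower (median 0.24), and 1 and 1 of 14 in the cluster. The counts in the cluster stand beside 9.69% of all genes past the fold higher there and 4.43% lower. Rspo3 stood at 131 and 110.4 CPM, a ratio of 1.19 in all rule-selected nuclei and 0.95 in the cluster. Tgfb2 was higher in the rule-selected nuclei (55.0 and 35.0 CPM; 1.57, 1.31 to 1.88), with 0.841 in oligodendrocyte-type nuclei and 1.49 in the cluster. Among ventral pole genes 4 of 10 were past the fold higher and 0 lower, but Nnat (1.87 and 0.885) and Htr2c (1.68 and 0.885) had opposite directions in the female and male mice, as did Etv1 (0.501 and 1.28).

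Genes of protein folding, interferon response and antigen display had medians above that of all genes. The heat shock and unfolded protein list had 17 of 22 genes higher and 5 lower, 2 past the fold, at a median of 0.28; these 77.3% stand beside 62.4% of all genes with a ratio above 1, and the 2 past the fold (9.09%) beside 8.24%. Hspa5, the main chaperone of the endoplasmic reticulum, had 419 UMIs (94.5 CPM) in the library labelled MR1 knockout and 408 UMIs (56.7 CPM) in the 5XFAD library, a ratio of 1.67 (1.45 to 1.92), of 1.75 in females and 1.5 in males, 1.63 in the cluster and 1.30 in oligodendrocyte-type nuclei. Pdia6, a disulfide isomerase, had a ratio of 1.51 (1.29 to 1.76), of 1.91 (1.49 to 2.45) in the cluster and 1.40 in oligodendrocyte-type nuclei.

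Among 18 interferon response genes, 15 were higher, 6 of them past the fold, and 3 lower (median 0.49). Ifi27 had 173 and 148 UMIs (1.90, 1.51 to 2.38), of 1.66 in females and 1.84 in males, 2.05 in the cluster and 1.29 in oligodendrocyte-type nuclei. Bst2, a restriction factor, had only 46 and 22 UMIs (3.39, 2.0 to 5.92), with 2.96 in oligodendrocyte-type nuclei. MHC class I genes were higher for 11 of 15, of which 4 were past the fold, and lower for 4 (median 0.45), so that 73.3% were higher, beside 62.4% of all genes. H2-K1, a classical class I chain, had 64 and 45 UMIs (2.31, 1.55 to 3.46) and B2m, the shared light chain, 241 and 264 UMIs (1.48, 1.24 to 1.77), with ratios of 2.73 and 1.78 in oligodendrocyte-type nuclei. All 25 lysosome and autophagy genes were higher, beside 62.4% of all genes, with 0 past the fold and a median of 0.27, among them Atp6v0c, a proton pump subunit (507 and 360.3 CPM; 1.41, 1.33 to 1.49). Within the Dcn and Pde11a cluster 7 of 7 measured interferon genes were higher, 5 of them past the fold, and 20 of 24 lysosome and autophagy genes, against 61.5% of all 12015 genes higher, 9.69% past the fold higher and 4.43% lower. With TMM scaling every log2 ratio in the rule-selected nuclei is smaller by 0.10, which leaves the medians of these 4 lists above 0.

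Few members of the glutamate receptor, channel, cyclase and effector lists were past the fold. Of 31 genes for glutamate receptors and scaffolds 12 were higher and 19 lower (median -0.04), and Grm8 (0.758), Grm3 (0.694) and Grik3 (0.678) were among the lower ones. Of 38 voltage-gated channel genes 0 were past the fold higher and 1 lower, and of 17 cyclic nucleotide effectors 0 were past it. Of 12 cyclase genes 1 was past the fold lower, Adcy8, a calcium-stimulated cyclase, with 282 UMIs in the library labelled MR1 knockout and 687 in the 5XFAD library (0.666, 0.578 to 0.767) and 1.26 in oligodendrocyte-type nuclei. Of 18 immediate early genes 6 were higher and 12 lower, 2 past the fold each way, beside 62.4% of all genes with a ratio above 1. Their median of -0.13 was -0.25 in females and 0.17 in males. In the Dcn and Pde11a cluster 1 of 13 was past the fold higher and 4 lower (30.8%, beside 4.43% of all genes).

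Thy1 and App, whose mouse sequences share parts with the transgenes, were higher in the library labelled MR1 knockout. Thy1 had 3967 UMIs (895 CPM) and 4498 UMIs (625 CPM), a ratio of 1.43 (1.37 to 1.5), of 1.43 in females and 1.27 in males. It was 1.44 in the Dcn and Pde11a cluster, 1.43 in the CA1-like cluster and 1.39 in oligodendrocyte-type nuclei. App had 3937 UMIs (888 CPM) and 5504 UMIs (764 CPM), a ratio of 1.16 (1.11 to 1.21), of 1.22 in females and 0.991 in males, with 1.03 in oligodendrocyte-type nuclei. In the Dcn and Pde11a cluster App stood at 906 and 823 CPM, a ratio of 1.10 (1.03 to 1.18). Reads of the human transgene cannot be told apart from those of the mouse genes in these counts where their sequence is shared.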

How the data were processed

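Nuclear RNA of flash-frozen hippocampus, about 20 mg per library, was captured in droplets with 3' chemistry, per the labels' protocols. The deposited files hold raw UMI counts per gene and barcode, made by the authors with Cell Ranger 7.0.0 per the file headers; the submitters' processing notes also name mm10 and Seurat without a role. For annotation release, strand and introns the setting is not given in the sources used here. Coordinates come from GENCODE M21, which matched 32235 of 32285 gene IDs.

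The rule that chose the nuclei was applied to both files as deposited. The members and the gene lists were chosen with earlier results of these data known. Doublets were scored with Scrublet in scanpy 1.11.5 and called at 0.8% per 1000 nuclei, because the automatic threshold called 0% in the 5XFAD library; called doublets were kept and left out as an alternative. All nuclei were clustered together (2500 variable genes, 40 principal components, 20 neighbours, Leiden resolution 1.5), with no cell annotation of the authors used, so classes can differ from theirs. Nuclei went to the female mouse with at least 2 Xist and no Y-linked UMIs, and to the male mouse with at least 1 Y-linked UMI of 4 genes and no Xist. CA3-type nuclei had at least 4 UMIs of Nectin3 and Grik4 with both detected; oligodendrocyte-type nuclei had at least 6 UMIs of at least 3 oligodendrocyte markers.

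UMIs were summed per library and set and scaled to CPM over the set. Ratios have exact conditional binomial, CPM exact Poisson and shares Clopper-Pearson 95% intervals (scipy 1.17.1), for counting error only; the calculation was tested on simulated data. Genes needed 100 UMIs to be counted and 20 in a list, where medians use a prior count of 0.5. edgeR 4.0.16 (TMM) and DESeq2 1.42.0 gave scaling factors alone. Named genes were the rule's genes and markers, Mr1, Thy1 and App, the 12 highest and 12 lowest of each comparison by the interval bound nearest to 1 (between groups with the same direction in female and male mice), and up to 4 members per list. The same rule was repeated in the Dcn and Pde11a cluster after the data were seen, and further list members were named after their values were seen. A few genes of these lists are not reported here.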

Additional observations from a re-analysis of the deposited data

Results flagged for a closer look

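The share of nuclei that met the rule differed in opposite directions in females and males, and this difference was not tested. With the library labelled MR1 knockout on top, the ratio was 0.369 for females and 1.46 for males. For all nuclei of the Dcn and Pde11a cluster it was 0.410 in females and 1.40 in males. The same opposite directions appeared in CA1-type nuclei (0.244 and 1.74) and CA3-type nuclei (0.541 and 2.93), and there was a single mouse behind each value.

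Of 23 gene lists 10 had medians on opposite sides of 0 in the female and male mice, again untested. For a pair of these the ratios of summed UMIs also had intervals on opposite sides of 1. The Wnt list had a median log2 ratio of -0.0060 in females and 0.067 in males, and the synaptic vesicle release list 0.19 in females and -0.016 in males, beside 0.12 and 0.08 over all genes. Beside these all-gene medians the Wnt list lay lower in both mice, so its medians were opposite only against 0. Tcf4, the basic helix-loop-helix factor, held 5396 of the 10373 summed UMIs of the Wnt list in the library labelled MR1 knockout. In the 5XFAD library it held 9649 of 17486. Its own ratios were 0.759 in females and 1.20 in males, so the summed value of this list rests largely on that gene.

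Barcodes at or above the mitochondrial limit, which no comparison used, held further nuclei that met every other term of the rule. These were 11 of 2148 such barcodes in the library labelled MR1 knockout (0.512%, 0.256 to 0.914) and 82 of 8098 in the 5XFAD library (1.01%, 0.806 to 1.26). They had median mitochondrial shares of 6.36% and 7.46% and medians of 3502 and 7106.5 UMIs.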

How the results depend on the processing

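No paired analysis was possible because each group had a single library. The ratio of shares, 0.567, was 0.426 with a mitochondrial limit of 1%, 0.724 with none, 0.470 with at least 6 marker UMIs, 0.369 in females and 0.864 after thinning to 2000 UMIs; it turned round to 1.46 in males. It lay between 0.551 and 0.620 without doublets, without barcodes holding Xist together with Y-linked UMIs, with at least 3 marker UMIs, with at least 1000 genes and in the Dcn and Pde11a cluster alone. The 362 genes past the fold higher became 217 with a mitochondrial limit of 1%, 102 in males, 20 after thinning, 207 in the Dcn and Pde11a cluster, 190 with TMM, 184 with DESeq2's size factors, 1223 with at least 20 UMIs, 3463 with no minimum beyond 1 UMI in each library and 26 with a fold of 2. The 129 lower became 77 in males, 17 after thinning, 229 with TMM, 240 with DESeq2's size factors, 626 with at least 20 UMIs, 1747 with no such minimum and 25 with a fold of 2. Fewer genes reached 100 UMIs in males and after thinning. Against CA1-type nuclei, 258 higher genes became 78 with a fold of 2, 447 with at least 20 UMIs and 479 between the main clusters, and 373 lower genes became 100 and 720 with a fold of 2 and at least 20 UMIs. The cause of the other moves was not tested.

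Among named genes past 1.5-fold, directions turned round, as log2 ratios, for Hba-a1 with a mitochondrial limit of 1% (-0.29). In males they did for Grm4 (0.46), Nefm (-0.079) and Sv2c (-0.89). After thinning they did for Hbb-bs (-0.56), Fhod3 (0.22), Aph1b (-0.072), Bace2 (-0.92), Fkbp5 (-0.81), Sstr4 (-0.81), Rps21 (0.0496) and Sv2c (-0.92). In the Dcn and Pde11a cluster they did for Hbb-bs (-1.66), Foxp2 (0.029), Bace2 (-0.36) and Grm4 (0.11). Counting ratios within the fold too, 22 of 115 named genes changed sign in males, 19 of 112 after thinning and 7 of 116 in the cluster. List medians, all within the fold, changed sign for 14 of 23 lists under at least 1 alternative, 6 of them in males, 2 in females and 6 after thinning. Of the other gene values 1156 lay within the interval of the value reported and 331 beyond it. Depth limits the rarest members: thinned nuclei left 702 genes with 100 UMIs.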

Other observations

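Within the Dcn and Pde11a cluster, the rule-selected nuclei were divided by Dcn and Rspo2, a split chosen after the data were seen. Dcn without Rspo2 was found in 75 nuclei of the library labelled MR1 knockout and 60 of the 5XFAD library, and Rspo2 without Dcn in 20 and 41. Both genes were found in 189 and 238 nuclei. Missing a gene at this depth does not show that a nucleus lacks it, and 20 nuclei are few, so the values describe these nuclei and carry no test.

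Several genes differed between the Dcn and the Rspo2 nuclei in the same direction in both libraries, among 3379 genes with at least 30 UMIs in each. Lrp1b, a large lipoprotein receptor, was 2.46-fold (2.13 to 2.85) higher in the Dcn nuclei in the library labelled MR1 knockout and 1.87-fold (1.68 to 2.09) in the 5XFAD library. Pde4b was 2.42-fold and 1.90-fold higher, Kirrel3, a synaptic adhesion protein, 1.69-fold and 1.91-fold, Hs3st4, a heparan sulfate sulfotransferase, 2.87-fold and 1.61-fold, and the guidance receptor gene Robo1 1.90-fold and 1.5-fold. The noncoding genes 4930555F03Rik (9.37-fold and 4.28-fold) and C130073E24Rik (5.27-fold and 7.91-fold) had the largest of these ratios. In the library labelled MR1 knockout they rest on 3 and 5 UMIs in the Rspo2 nuclei (3.09 to 46.4 and 2.16 to 16.7). No share of the 3379 genes past the fold is given for this split, so the named genes have no background beside them. On the other side, Cdh4 was 0.222 and 0.314 times as high in the Dcn nuclei, Sema6d, a semaphorin, 0.219 and 0.36 times, Chst9 0.454 and 0.314 times and Sorcs1 0.588 and 0.300 times. Kcnip4 and Dpp10, both auxiliary subunits of A-type potassium channels, were 0.630 and 0.672 times and 0.705 and 0.721 times as high.

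Further lists in the cluster against CA1-type nuclei showed genes of transmitter release and long noncoding RNA. Of 29 release genes 5 were past the fold higher and 1 lower, beside 8.56% and 6.01% of all genes; Snap25, a core fusion protein, stood at 1293 against 743 CPM in the library labelled MR1 knockout and 1205 against 574 CPM in the 5XFAD library. Meg3, an imprinted noncoding RNA, was 1.67-fold and 1.74-fold higher, and Malat1 0.640 and 0.641 times as high. Between the groups, Fkbp5, a glucocorticoid-induced chaperone, had 188 UMIs in the rule-selected nuclei of the library labelled MR1 knockout and 195 in those of the 5XFAD library, a ratio of 1.57 (1.27 to 1.92), with 1.27 in oligodendrocyte-type nuclei. Egr1 had 22 and 92 UMIs (0.388, 0.232 to 0.623), with 0.417 in oligodendrocyte-type nuclei.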
